A study of Mus musculus with 2 samples.

Results

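Venous endothelial cells line the vessels that carry blood out of the capillary bed and, in the lung, back to the heart. The cells described here were chosen by measured values, the UMI counts of marker genes in each cell, out of the 2 single-cell RNA libraries of the study, 1 from *Pclaf* WT and 1 from *Pclaf* KO lung. UMIs are unique molecular identifiers, which count captured mRNA molecules. A cell was taken as venous when it held UMIs of at least 2 of the pan-endothelial genes *Pecam1*, *Cdh5*, *Cldn5* and *Calcrl*, at least 1 UMI of *Vwf*, and UMIs of at least 1 of *Slc6a2*, *Vcam1* and *Nr2f2*. It also had to be at 0 UMIs of *Car4*, *Gja5*, *Gja4* and *Prox1*, which mark other endothelial cells, and of *Ptprc*, *Col1a2* and *Epcam*, which mark other lineages. The rule found 533 venous endothelial cells among 45824 kept cells, 499 in the *Pclaf* WT library and 34 in the *Pclaf* KO library.

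Both libraries came from lungs of mice aged 8 to 10 weeks, taken 1 week after bleomycin was instilled. The dose is 1.35 U/kg in the series' design text, while other sources on the study give other doses. *Pclaf* WT mice carried the intact gene and *Pclaf* KO mice came from an established knockout line. Bleomycin is a drug that injures the lung epithelium, and neither group was left without it, so no uninjured venous cells were available for comparison. The study sorted Cd31-/Cd45-/Epcam+ cells, a gate that should remove endothelial cells, and the cells described here are those that nonetheless reached the libraries. The number of mice behind each library is not given in the sources used here. With 1 library per genotype there was no replicate check and no test between genotypes: the ranges below are exact 95% Poisson intervals for levels and ratios and exact 95% binomial (Clopper-Pearson) intervals for shares, and they cover counting error only.

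Veins and post-capillary venules are the sites where leukocytes leave the blood. Their endothelium stores P-selectin and von Willebrand factor in granules, displays selectins and adhesion molecules that slow and hold leukocytes, and carries an atypical chemokine receptor that ferries chemokines to the surface. The orphan nuclear receptor encoded by *Nr2f2* is known to uphold venous identity by restraining Notch signalling, the pathway that specifies arteries.

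The WT matrix listed 98171818 UMIs over 30669 barcodes and the KO matrix 111267567 UMIs over 17172 barcodes, where the labels state that 16000 cells were loaded for each. Cells with more than 200 and under 5000 genes and under 20% mitochondrial UMIs were kept, which left 30187 cells (median 2127 UMIs) and 15637 cells (median 5957 UMIs). The 499 WT venous cells had a median of 2739 UMIs (lowest 502, highest 17182) and 1613766 UMIs in all. The 34 KO venous cells had a median of 4050 UMIs (lowest 818, highest 10133) and 144438 UMIs in all, so every KO value rests on far fewer counts than its WT counterpart. The libraries shared 163 barcodes, of which 0 belonged to WT venous cells and 1 to a KO venous cell. *Pclaf* itself was at 30 UMIs in the WT venous cells (18.6 CPM, counts per 1000000 UMIs, 12.5 to 26.5) and at 1 UMI in the KO venous cells (6.92 CPM, 0.175 to 38.6), a depth at which the difference was not detectable in these cells. Over all kept cells its level was 39.3 CPM in the WT library, against 5.19 CPM for KO.

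The study's methods describe male mice, and both libraries went against that. Among the WT venous cells, 108 carried *Xist*, the transcript of the inactive X chromosome of females, with no UMI of 4 Y-linked genes (*Ddx3y*, *Uty*, *Kdm5d*, *Eif2s3y*), 162 carried Y-linked transcripts without *Xist*, and 8 carried both. Among the KO venous cells the same counts were 15, 9 and 1. The counts, lists and named genes of the main comparisons below were therefore also computed in cells with *Xist* alone and with Y-linked transcripts alone, and the main changes from the pooled values are given below.

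Venous cells made up 6.18% of the 8074 WT endothelial cells (5.66 to 6.73) and 7.69% of the 442 KO endothelial cells (5.39 to 10.6). The intervals overlapped. When every cell was thinned to 1000 UMIs before the rule was applied, the shares were 6.24% of 6599 WT and 7.57% of 370 KO endothelial cells, those with fewer UMIs being left out. Endothelial cells as a whole were 26.8% of kept WT cells and 2.83% of kept KO cells, a share that the sort for epithelial cells can set, so the venous share of all kept cells was 1.65% for WT against 0.217% for KO. In WT, 3128 endothelial cells carried *Vwf*, 822 of these also carried 1 of the other vein genes, and the last step left 499. That step removed 246 cells with *Gja4*, 99 with *Car4*, 80 with *Gja5* and 2 with *Prox1*, some of them with more than 1 of these genes.

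The genes of the rule are described first, since they chose the cells and are no finding. *Vwf* encodes von Willebrand factor, the adhesive protein that tethers platelets (GRCm38, chromosome 6, 125546774 to 125686679, plus strand). It was at 3451 CPM in WT venous cells (3361 to 3543) and at 3829 CPM in KO venous cells (3516 to 4161). Per cell it ranged from 1 to 64 UMIs in WT with a median of 9, and from 1 to 41 in KO with a median of 12. *Slc6a2* encodes the noradrenaline transporter, which clears circulating noradrenaline (chromosome 8, 92960079 to 93001667, plus strand). Its level was 1821 CPM in WT against 1246 CPM in KO venous cells, and it was found in 369 of 499 WT cells (73.9%) and 29 of 34 KO cells (85.3%), with at most 75 UMIs in a cell. *Vcam1*, an adhesion molecule for lymphocytes and monocytes, was found in 37.1% of WT and 38.2% of KO venous cells. *Nr2f2*, the venous transcription factor, was found in 63.9% and 70.6%.

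**Figure D1:**
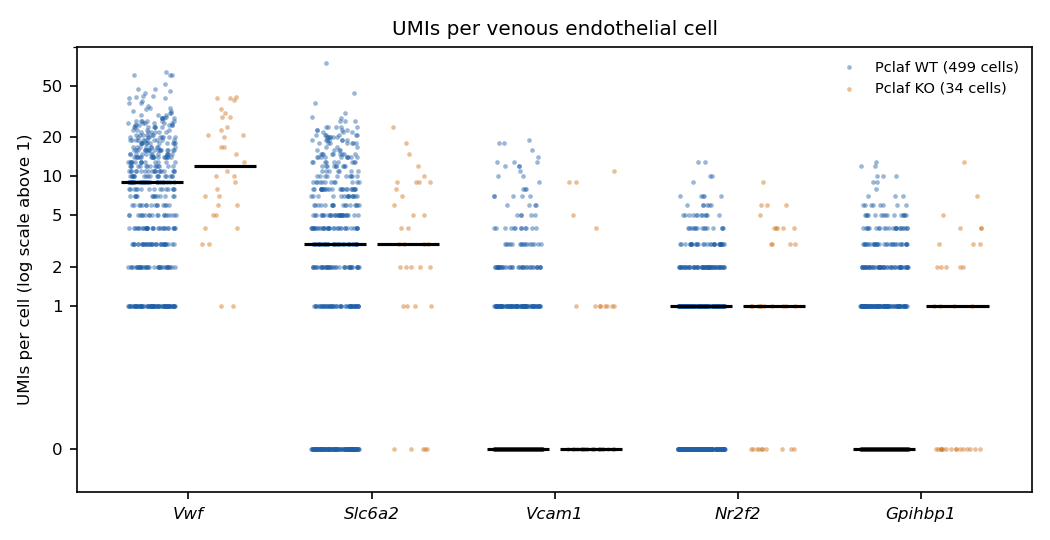
UMIs per cell (y axis, log scale above 1) of the vein genes of the rule and of *Gpihbp1* in each venous endothelial cell of the *Pclaf* WT (499 cells) and *Pclaf* KO (34 cells) library. Black lines are medians. *Vwf* spans 1 to 64 UMIs in WT, and *Vcam1* is at 0 UMIs in most cells of both libraries.

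At the edge of the rule the cells were less distinct. The 76 WT cells with exactly 1 *Vwf* UMI had *Slc6a2* at 384.8 CPM, against 1964 CPM in the 423 cells with 2 or more *Vwf* UMIs. The 231 cells that met every other condition but had 0 *Vwf* UMIs had *Slc6a2* at 152.1 CPM. Cells of other lineages gave a background for such single UMIs, whose source was not tested: 6.05% of 4284 WT immune cells (median 2494 UMIs) carried a *Vwf* UMI, but 0.42% carried one of *Slc6a2*. *Nr2f2* was not restricted to vessels, with UMIs in 56.4% of 1647 WT mesenchymal cells, and *Vcam1* was found in 38.2% of them.

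The label was then checked against vein genes that the rule did not use. For this the venous cells of the WT library were set against 4 other endothelial classes picked in the same way: a capillary class (1439 cells with *Gpihbp1* and without *Vwf* and *Slc6a2*), an arterial class (363 cells with *Gja5*), an aerocyte class (407 cells with *Car4* and *Ednrb*, the thin gas-exchange capillary cells) and a lymphatic class (31 cells with *Prox1*). Because cells were sorted into classes by their transcripts, these comparisons are descriptions and have no test. Genes were compared where both sides together held at least 50 UMIs, and called at a difference of at least 2-fold. A gene high on 1 side could reach this minimum through that side, so counts and medians over a list rest in part on it. Of 8374 genes outside the rule, 307 (3.67%) were at least 2-fold higher in venous than in capillary cells and 219 (2.62%) at least 2-fold lower. Leukocyte markers moved with this comparison: the 12 immune markers summed to 1987 CPM in venous and 3665 CPM in capillary cells, led by *Lyz2* (949 and 1724 CPM), none was at 0 UMIs in either class, and 5 of 11 measured were at least 2-fold lower in venous cells and none 2-fold higher, with a median log2 ratio of -0.86. Their part in the ratios was not tested.

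Vein genes outside the rule were high in these cells. Of 14 known vein genes, 13 were at least 2-fold higher in venous than in capillary cells, none was 2-fold lower, and their median log2 ratio was 3.94, against 0.00 over all measured genes. *Prss23*, a secreted serine protease, was at 743 CPM in venous cells (701.5 to 786.3), 55.9 CPM in the capillary class, 51.2 CPM in the arterial class, 40.6 CPM in the aerocyte class and 475 CPM in the lymphatic class. *Cpe*, which encodes carboxypeptidase E, was at 251 CPM in venous cells and 2.00 CPM in capillary cells. *Bst1*, an ectoenzyme of nicotinamide metabolism, was at 171 CPM, 15.3-fold above the next class. *Car8*, a carbonic anhydrase-related protein, was at 268 CPM in venous, 4.39 CPM in capillary and 28.9 CPM in arterial cells, but it is no vessel-restricted gene here, with UMIs in 48.1% of 491 WT epithelial cells.

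The remaining gene of the list, *Ephb4*, is the ephrin receptor of veins. Its log2 ratio was 0.43 (0.24 to 0.62). The order of the classes was not the same for every vein gene. *Nrp2*, a co-receptor for lymphatic growth factors, was at 242 CPM in venous cells but at 1414 CPM in the lymphatic class, and *Nr2f2* was at 400.3 CPM in venous and 760 CPM in lymphatic cells. Both stood at or below 36 CPM in the capillary, arterial and aerocyte classes. The lymphatic marker *Mmrn1* was at 9.29 CPM in venous cells and 2596 CPM in the lymphatic class.

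**Figure D2:**
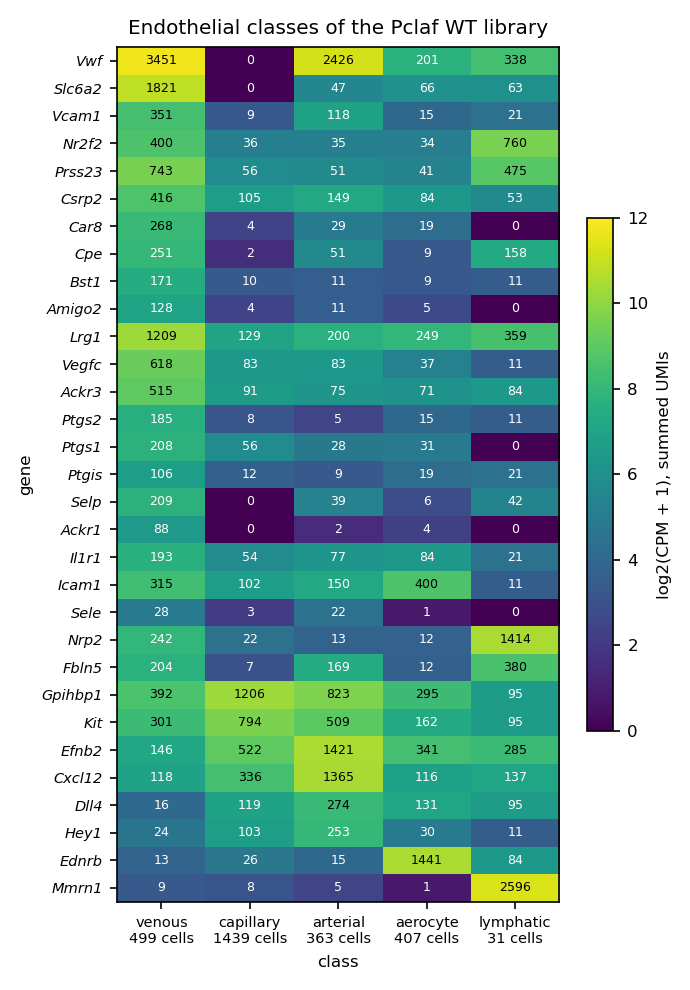
Levels of 31 genes in 5 endothelial classes of the *Pclaf* WT library, printed as CPM of summed UMIs and coloured by log2(CPM + 1). Genes named for veins are highest in the venous column, with the exceptions of *Nr2f2* and *Nrp2*, which are higher in the lymphatic column. *Gpihbp1*, *Vwf*, *Slc6a2*, *Vcam1*, *Nr2f2* and *Ednrb* also served to pick the classes.

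The 10 highest log2 ratios of venous over capillary cells outside the rule belonged to *Selp*, *Ackr1*, *Foxc1*, *Gm5127*, *Mmp16*, *Fjx1*, *Ncam1*, *Cytl1*, *Cpe* and *Ctnnal1*. *Selp*, *Ackr1*, *Foxc1* and *Gm5127* had 0 UMIs in the 1439 capillary cells, and the ratio is a lower bound for each. With the capillary side set at 3 counts, *Selp* had a log2 ratio of at least 7.45, *Ackr1* of at least 6.20, *Foxc1*, a forkhead transcription factor of vessel development, of at least 5.56 and *Gm5127* of at least 5.46. *Mmp16*, a membrane-bound matrix metalloproteinase, was at 104 CPM against 0.40 CPM. *Cytl1* was at 154 CPM against 1.20 CPM, but at 99.7 CPM in the arterial class.

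The 10 lowest ratios belonged to *Tmem221*, *Cd300lg*, *Esm1*, *Lyz1*, *Nos2*, *Sln*, *Ccl22*, *Dll4*, *Scgb3a2* and *Prss12*. *Dll4*, a Notch ligand of arteries and sprouting capillaries, was at 16.1 CPM in venous cells and 119 CPM in capillary cells. *Esm1*, a marker of growing endothelium, was at 2.48 CPM against 27.6 CPM. *Lyz1*, *Nos2*, *Ccl22* and *Scgb3a2* are better known from leukocytes and airway epithelium. In the set of cells with *Xist* alone, *Lyz1* and *Sln* were higher in venous cells instead.

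Genes of leukocyte recruitment were split, and this list shares *Selp* and *Ackr1* with the vein list. Of 13 measured genes of that list, 7 were at least 2-fold higher in venous than in capillary cells and 1 at least 2-fold lower, where 3.67% and 2.62% of all measured genes were, and the median log2 ratio was 1.62. *Selp* and *Ackr1* are among the 7 and reached the UMI minimum through the venous side alone. *Il33*, also among the 7, reached it mainly through that side, with 68 UMIs there. The count and the median therefore rest in part on this minimum. Against the arterial class 5 of 13 were at least 2-fold higher and 3 at least 2-fold lower (3.98% and 2.91% of all genes), with a median of 0.28. The median of 1.62 became 0.54 against all other endothelial cells and 0.04 when the limits of 200 and 5000 were read as UMIs, so it was not stable. Why it moved was not tested. *Selp*, which encodes P-selectin, was at 209 CPM in WT venous cells (187.1 to 232.4), at 42.2 CPM in the lymphatic class, 39.1 CPM in the arterial class and 6.25 CPM in the aerocyte class. It was found in 101 of 499 venous cells (20.2%). *Ackr1*, the chemokine-ferrying receptor of venules, was at 88.0 CPM in venous cells and at most 3.90 CPM in any other class, and 47 cells (9.42%) carried it. *Sele*, which encodes E-selectin, was rare, with 46 UMIs in 16 cells.

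The receptors and adhesion molecules of the list followed. *Icam1* was at 315 CPM in venous cells and 102 CPM in the capillary class, but at 399.8 CPM in the aerocyte class. *Il1r1*, the interleukin-1 receptor, was at 193 CPM against 53.9 CPM, *Jam2*, a junctional adhesion molecule, at 308 CPM against 93.1 CPM, and *Il33*, a nuclear alarmin, at 42.1 CPM against 7.19 CPM. *Cx3cl1*, a membrane-bound chemokine, was lower (11.1 CPM against 31.6 CPM). The secreted chemokines and cytokines *Cxcl1*, *Cxcl9*, *Cxcl10*, *Il6* and *Csf3* each had fewer than 50 UMIs over both classes.

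**Figure D3:**
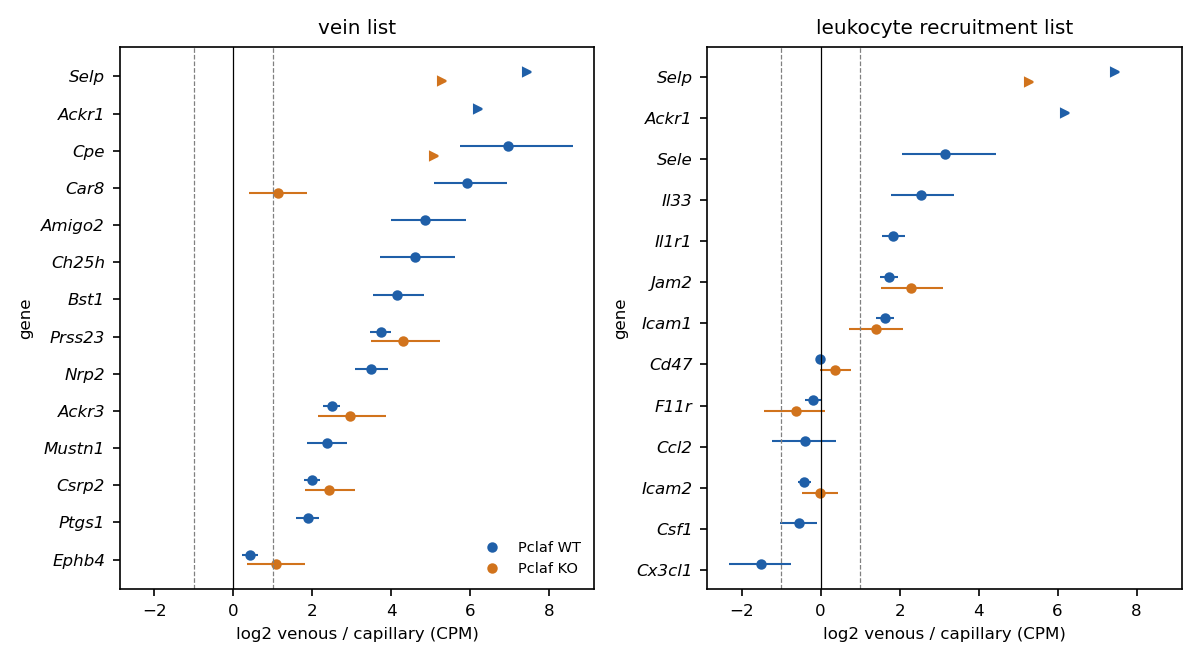
Log2 ratio of CPM in venous over capillary cells for the vein list (left) and the leukocyte recruitment list (right) in *Pclaf* WT and *Pclaf* KO. Bars are exact 95% counting intervals, triangles are lower bounds where the capillary class had 0 UMIs, dashed lines mark 2-fold, and KO genes under 50 UMIs are not drawn. In WT the vein genes lie right of 0, and the recruitment genes lie on both sides of it. Some KO genes reached the UMI minimum mainly through the venous side, so the side on which KO genes lie is not read.

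The promoters of *Sele* and *Selp* are shown because these selectins are returned to in the comparison of genotypes. Both genes lie on chromosome 1, at 164048234 to 164057677 and 164115264 to 164150026. The sequences are RefSeq's for GRCm38.p6, 250 bases before each gene's start, both on the plus strand. The stretch of *Sele* spans chr1:164047984-164048233 and that of *Selp* spans chr1:164115014-164115263. Capitals mark matches to a loose form of the NF-kB site, GGG and CC with any 5 bases between them, searched on both strands. The match of *Sele* is on the reverse strand.
Sele: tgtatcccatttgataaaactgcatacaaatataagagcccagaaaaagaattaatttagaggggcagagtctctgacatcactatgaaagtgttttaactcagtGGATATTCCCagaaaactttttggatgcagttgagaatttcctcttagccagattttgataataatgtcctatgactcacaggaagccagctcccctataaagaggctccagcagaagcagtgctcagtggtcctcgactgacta
Selp: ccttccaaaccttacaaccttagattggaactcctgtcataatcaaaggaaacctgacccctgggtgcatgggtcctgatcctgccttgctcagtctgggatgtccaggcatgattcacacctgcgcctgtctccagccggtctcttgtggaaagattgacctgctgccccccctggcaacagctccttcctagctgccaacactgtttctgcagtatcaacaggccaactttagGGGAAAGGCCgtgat
*Icam1* also held 1 match and *Ackr1* held none in the 300 bases around the start. The pattern occurred in 16686 of 32851 RefSeq promoters of this length (50.8%), so a match is a description only.

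Of 14 measured vasoactive genes, 4 were at least 2-fold higher and 1 at least 2-fold lower in venous than in capillary cells, where 3.67% and 2.62% of all measured genes were. *Ptgs2*, the inducible cyclooxygenase, was at 185 CPM, 12.45-fold above the next class. *Ptgs1*, the constitutive cyclooxygenase, was at 208 CPM against 55.9 CPM, and *Ptgis*, which makes prostacyclin, was at 106 CPM against 12.4 CPM. *Pla2g4a*, the phospholipase that releases arachidonic acid for these enzymes, is outside the list and was named after its value was seen: it was at 129.5 CPM, 9.93-fold above the next class. *Nos3*, endothelial nitric oxide synthase, had a log2 ratio of 1.49. *Npr3*, a clearance receptor for natriuretic peptides, was lower, at 125 CPM against 296 CPM. *Ptgis* had 171 UMIs in venous cells and reached the UMI minimum mainly through them, so the count of 4 rests in part on that minimum.

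The growth factor and matrix genes were shared in part with arteries. *Vegfc* was at 618 CPM in venous cells and at most 82.9 CPM in any other class. *Lrg1*, which is raised in activated endothelium, was at 1209 CPM (1156 to 1264) and at most 359 CPM elsewhere, and *Ackr3*, a scavenger of *Cxcl12*, at 515 CPM and at most 91.5 CPM. In contrast, the elastic fibre genes *Fbln5* (204.5 CPM), *Eln* (369.9 CPM) and *Ltbp4* (268 CPM) stood well above the capillary class (6.79, 143 and 40.7 CPM) but close to or below the arterial class (168.6, 322.2 and 494.5 CPM). Of 17 measured matrix genes out of 21 listed, 8 were at least 2-fold higher and 1 at least 2-fold lower than in capillary cells, against the same 3.67% and 2.62% of all genes. A gene could reach the UMI minimum mainly through the venous side, as *Fbln5* did with 330 UMIs there, so this count rests in part on that minimum. The basement membrane collagen *Col4a1* was lower (759 CPM against 1247 CPM).

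The Notch and arterial genes stood on the other side. Against the arterial class, 283 of 7105 genes (3.98%) were at least 2-fold higher in venous cells and 207 (2.91%) at least 2-fold lower. All 12 genes of the arterial list were measured there, 8 of them were at least 2-fold lower, and the median log2 ratio was -3.33. *Efnb2*, the arterial ephrin, was at 146 CPM in venous and 1421 CPM in arterial cells, *Cxcl12* at 118 against 1365 CPM, and *Hey1*, a Notch target, at 24.2 against 253 CPM. Other markers moved with the arterial comparison. The epithelial markers summed to 3012 CPM in venous and 1730 CPM in arterial cells, and 3 of 9 measured were at least 2-fold higher and 0 lower (median log2 ratio 0.87). Of 7 measured cell cycle genes 3 were at least 2-fold higher and 0 lower (median 0.98). Their part in the ratios to arterial cells was not tested. Against the capillary class, 3 of 9 measured Notch genes were at least 2-fold lower, as were 2.62% of all genes, and none was 2-fold higher.

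Capillary genes were lower but present. *Kit*, the stem cell factor receptor of general capillaries, was at 301 CPM in venous cells and 794 CPM in the capillary class. *Gpihbp1*, which anchors lipoprotein lipase in capillaries and was used to pick the capillary class, was found in 248 of 499 venous cells (49.7%). The other 7 genes of the capillary list had log2 ratios from -1.40 to -0.08, and 3 of them (*Kit*, *Sema3c* and *Glp1r*) were at least 2-fold lower, as were 2.62% of all measured genes. The 12 pan-endothelial genes had a median log2 ratio of -0.13 and none passed 2-fold in either direction.

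After these values were seen, genes were also sought that stood at least 2-fold above every other class. Of 5354 genes with at least 50 UMIs in the WT venous cells, 89 did so (1.66%). Besides those named above they included *Samd5* (911.5 CPM), the cytokine receptor *Il6st* (945 CPM), the scavenger receptor *Colec12* (196 CPM) and *Tmem45a* (152 CPM, 24.4-fold above the next class).

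The same comparison in the KO library rests on small counts. There, 110 of 1244 measured genes (8.84%) were at least 2-fold higher in venous than in capillary cells and 82 (6.59%) at least 2-fold lower. Of the 14 vein genes 7 reached 50 UMIs, and some did so mainly through the venous side, where they were high, so no count or median over them is given. *Prss23* was at 1191 CPM in KO venous and 60.3 CPM in KO capillary cells, with a log2 ratio of 4.30 (3.49 to 5.24). *Csrp2*, a LIM domain protein, was at 727 CPM against 134 CPM, and *Ackr3* at 540 CPM against 69.5 CPM. *Cpe* and *Selp* had 68 and 78 UMIs in venous and 0 in capillary cells. *Selp* was not restricted to venous cells in KO: in the KO aerocyte class of 31 cells it was at 705 CPM, above its KO venous level. *Car8* and *Ephb4* were closer, with log2 ratios of 1.13 (0.40 to 1.88) and 1.08 (0.36 to 1.82). Of the 12 arterial genes 4 reached 50 UMIs, and they went both ways. *Cxcl12* reached it mainly through the capillary side (11 UMIs in venous and 94 in capillary cells), so no count or median over these genes is given either. *Sftpc*, a surfactant gene of type 2 alveolar cells, was at 32211 CPM in the KO capillary class of 91 cells and at 1433 CPM in KO venous cells, and its part in the KO ratios was not tested. Within the WT library, all 14 vein genes were measured in cells with Y-linked transcripts alone, where their median log2 ratio was 3.84 and 13 were past 2-fold. In cells with *Xist* alone 11 of the 14 reached 50 UMIs, and 10 of these were past 2-fold, a count that the UMI minimum sets in part.

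The venous cells varied among themselves. In WT, 115 cells qualified through *Slc6a2* alone, 91 through *Nr2f2* alone, 25 through *Vcam1* alone, and 106 carried all 3. The 91 cells with *Nr2f2* alone (18.2% of the WT venous cells) went against the label in several genes: *Prss23* was at 62.3 CPM (34.9 to 102.8), *Gpihbp1* at 802 CPM and *Kit* at 831 CPM, where the capillary class stood at 55.9, 1206 and 794 CPM. *Cpe* was at 70.6 CPM and *Lrg1* at 586 CPM in them, against 2.00 and 129 CPM in the capillary class. The 25 cells with *Vcam1* alone, whose counts are small, also went against it: *Kit* was at 862 CPM, *Efnb2* at 399 CPM and *Gpihbp1* at 511 CPM, while *Prss23* was at 160 CPM (76.5 to 293.4) and *Car8* and *Bst1* at 31.9 CPM each, from 2 UMIs. Both sets are best called by the rule that picked them. To describe this spread, which follows a gene of the rule, the 369 cells with *Slc6a2* (median 2894 UMIs) were set against the 130 without (median 2340 UMIs). Of 5354 measured genes, 210 (3.92%) were at least 2-fold higher in the cells with *Slc6a2* and 115 (2.15%) at least 2-fold lower. Vein genes were mostly on the side of *Slc6a2*: 11 of 14 were at least 2-fold higher there, with a median log2 ratio of 1.19. A gene could reach the UMI minimum mainly through 1 side, as *Ackr1* did with 130 UMIs in the cells with *Slc6a2* and 12 in those without. The counts over lists in this split therefore rest in part on that minimum.

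*Prss23* was at 919 CPM in the cells with *Slc6a2* and 121 CPM in those without, *Bst1* at 203.5 and 56.2 CPM, and *Igfbp5*, an insulin-like growth factor binding protein, at 222 and 5.62 CPM. In the other direction, *Efnb2* was at 69.9 CPM in cells with *Slc6a2* and 416 CPM in cells without, *Cxcl12* at 62.8 and 315 CPM, *Kit* at 174 and 751 CPM, and *Sema3g* at 21.5 and 163 CPM. Of 6 measured arterial genes 3 were at least 2-fold lower in the cells with *Slc6a2* and 1 higher, and of 7 measured capillary genes 3 were at least 2-fold lower. *Ccl21a*, a chemokine of lymphatic vessels, was at 5.56 CPM in cells with *Slc6a2* and 219 CPM in cells without, but 76 of its 85 UMIs lay in 1 cell, and the reads of near-identical *Ccl21* copies may be split between genes. *Selp* was found in 24.1% of the cells with *Slc6a2* and 9.23% of those without. Its summed level was 220.2 against 169 CPM, but 49 of the 60 UMIs behind the second value lay in the 14 cells with *Vcam1* and *Nr2f2*, of which 35.7% carried it. Markers of type 2 alveolar cells moved with this split as well: *Sftpc* was at 1315 CPM in cells with *Slc6a2* and 4904 CPM in cells without, *Sftpa1* at 135 and 610.1 CPM, *Cxcl15* at 54.0 and 399 CPM and *Lcn2* at 14.3 and 194 CPM. Of the *Sftpc* UMIs in the 499 WT venous cells 75.5% lay in 3 cells, and the part of these transcripts in the split was not tested.

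**Figure D4:**
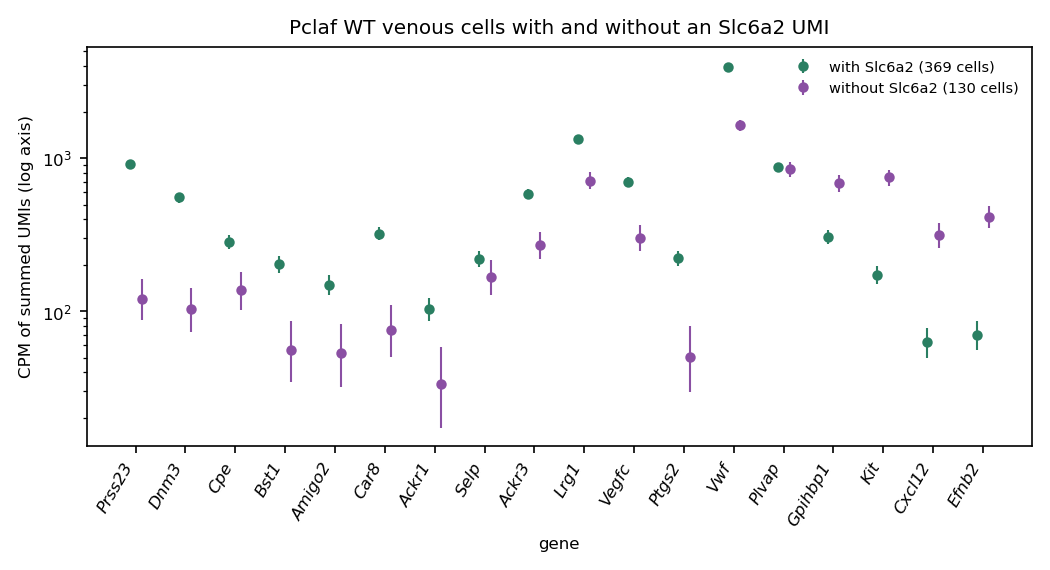
CPM (log axis) of 18 genes in WT venous cells with an *Slc6a2* UMI (369 cells) and without one (130 cells). Bars are exact 95% Poisson intervals. Vein genes such as *Prss23* and *Bst1* are higher in the cells with *Slc6a2*, and *Kit*, *Cxcl12* and *Efnb2* are higher in the cells without.

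A second line of variation ran with *Selp*, and was looked at after the values were seen. The 101 WT venous cells with *Selp* were deeper (median 4128 UMIs) than the 398 without (median 2400 UMIs). Of 5353 measured genes, 104 (1.94%) were at least 2-fold higher in the cells with *Selp* and 208 (3.89%) at least 2-fold lower. *Ackr1* was at 238 CPM in cells with *Selp* and 23.9 CPM in cells without, the highest ratio outside *Selp* itself. *Icam1* was at 587 and 199 CPM, and *Lrg1* at 2087 and 833 CPM. *Vcam1* was at 610 and 240 CPM, but it is a gene of the rule, which shapes its spread among these cells. Of 9 measured recruitment genes 3 were at least 2-fold higher with *Selp* and 0 lower, with a median log2 ratio of 0.15. *Vcan* (149 and 29.2 CPM) and *Col15a1* (180 and 38.1 CPM), vessel-wall genes named from the highest ratios, were also higher with *Selp*. The matrix list as a whole was not: of 16 measured genes 2 were at least 2-fold higher and 2 at least 2-fold lower, with a median of 0.18. In contrast, the summed level of *Slc6a2*, also a gene of the rule, was 1748 and 1852 CPM, with a log2 ratio of -0.08 (-0.20 to 0.03). By share of cells *Slc6a2* did differ: it was found in 88.1% of the deeper cells with *Selp* and 70.35% of those without. *Prss23* was at 758 and 736 CPM. Of 7 measured capillary genes 5 were at least 2-fold lower with *Selp*, with a median log2 ratio of -1.07. Of 12 immediate-early genes, which respond to stress and to tissue dissociation, 2 were at least 2-fold higher, with a median of 0.89. Markers of other cells moved with this split: 8 of 8 measured immune markers were at least 2-fold lower in the cells with *Selp*. A gene could reach the UMI minimum mainly through 1 side, so the counts over lists in this split rest in part on that minimum. *Sftpc*, another such marker, was at 72.3 CPM in the cells with *Selp* and 2976 CPM in the cells without, with 75.5% of its UMIs in the WT venous cells held by 3 cells. Their part in the split was not tested.

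Between genotypes, the venous cells were compared on all genes. Their make-up differed: cells with *Nr2f2* alone were 91 of 499 in WT and 3 of 34 in KO, and cells with *Vcam1* alone were 25 and 0. The part of this make-up in the ratios was not tested. Of 5615 measured genes, 121 (2.15%) were at least 2-fold higher in KO and 545 (9.71%) at least 2-fold lower, with a median log2 ratio of -0.08. These counts moved with the UMI minimum, to 432 and 1336 at 20 UMIs and to 12 and 51 at 200 UMIs. Of the 121 higher genes 104 had a counting interval that left out 0, and of the 545 lower genes 208 did, with 35 at 0 UMIs in the KO cells. Among the 14 vein genes 2 were at least 2-fold higher in KO (*Selp* and *Mustn1*) and 1 lower (*Ch25h*), with a median log2 ratio of 0.20. Among the 12 pan-endothelial genes only *Robo4* passed 2-fold, and their median was 0.00.

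Among the 10 highest ratios of KO over WT were those of *Scgb1a1*, *Hist1h4d*, *Sele*, *Zfp46*, *Apold1*, *Cks2*, *Pgp*, *Tomm40* and *Kirrel3*. *Selp* was at 540 CPM in KO (78 UMIs) and 209 CPM in WT (337 UMIs), a log2 ratio of 1.37 (1.00 to 1.73). This direction turned when the cell limits of 200 and 5000 were read as UMIs, which left 20 KO venous cells: the log2 ratio was then -1.54 for *Selp* and -1.84 for *Apold1*. In the cells as chosen here, 64 of the 78 UMIs lay in 2 of the 34 KO cells. The same 2 cells held all 16 KO UMIs of *Sele*, 55 of 71 of *Ptgs2*, 31 of 53 of *Icam1* and 18 of 20 of *Apold1*. In the other 32 KO cells *Selp* was at 107 CPM (58.7 to 180.3) and *Ptgs2* at 123 CPM (70.2 to 199.4). Since the 2 cells were picked for their *Selp* UMIs and no WT cells were left out, these levels are not compared with those of WT. *Cks2*, a cell cycle gene, had its 16 KO UMIs in 3 cells.

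*Kirrel3*, which encodes a cell adhesion protein, was at 450.0 CPM in KO (12 of 34 cells) and 138 CPM in WT (90 of 499 cells), a log2 ratio of 1.71 (1.29 to 2.12). The highest 3 of the KO cells held 46.1% of its UMIs. In the cells with Y-linked transcripts alone, of which the KO library held 9, *Selp*, *Sele*, *Apold1*, *Cks2* and *Mustn1* were lower in KO than in WT. *Scgb1a1*, the secretoglobin of airway club cells, was at 1149 CPM in KO and 212.5 CPM in WT and was found in 32 of 34 KO cells and 188 of 499 WT cells, with at most 14 UMIs in a KO cell.

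The 10 lowest ratios belonged to *Lpl*, *Il1b*, *Hbb-bs*, *C1qa*, *Ctsc*, *Laptm5*, *C1qc*, *S100a4*, *Ccl21a* and *Ric1*, each at 0 UMIs in the KO venous cells. The limit given for a count of 0 is the level of 3 counts, here 20.8 CPM, and not the upper end of a Poisson interval. The WT UMIs of several of these lay in few cells: 1 cell held 89.4% of the WT UMIs of *Ccl21a*, and 3 cells held 79.8% of those of *Il1b*, 53.7% of *Hbb-bs* and 53.3% of *C1qa*. *Lpl*, which encodes lipoprotein lipase, was at 184 CPM in WT, in 128 of 499 cells, of which the highest 3 held 18.5% of the UMIs. Its log2 ratio was -3.15 or lower with KO set at 3 counts. *Lpl* was not at 0 in the KO capillary class, where it was at 139 CPM.

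Most of the other genes in that set are leukocyte or red cell genes, and markers of those and of other cells moved with the genotype. The 12 immune markers summed to 1987 CPM in WT venous cells and 450.0 CPM in KO venous cells, 8 of 8 measured markers were at least 2-fold lower in KO, where 9.71% of all measured genes were, and *Coro1a*, *Laptm5*, *Cd79a*, *Cd3e*, *S100a8*, *S100a9*, *Ccl5* and *C1qa* were at 0 UMIs there. These markers could reach the UMI minimum through the WT side, as *C1qa* did with 120 UMIs in WT venous cells, so the tally of 8 rests in part on that minimum. *Lyz2*, the most abundant of the 12, had 949 CPM in WT against 284 CPM in KO, and 36.6% of its UMIs in the WT venous cells lay in 3 cells. The red cell markers summed to 175 CPM in WT against 13.8 CPM in KO. The 10 mesenchymal markers summed to 173.5 CPM (led by *Tagln*, 41.5 CPM) against 41.5 CPM from 6 UMIs, 2 of 3 measured were at least 2-fold lower in KO (9.71% of all genes), and *Pdgfra*, *Pdgfrb*, *Cspg4*, *Acta2*, *Lum* and *Postn* were at 0 UMIs there. The 15 epithelial markers summed to 3012 CPM in WT venous cells against 2852 CPM in KO, led by *Sftpc*. Of its UMIs in the WT venous cells 3 cells held 75.5%, while all 34 KO cells carried it with at most 20 UMIs each. The members of this list did not move together: 5 of 9 measured epithelial markers were at least 2-fold lower in KO (9.71% of all genes) and 1, *Scgb1a1*, at least 2-fold higher (2.15%), the median log2 ratio was -1.42, and *Krt8*, *Krt19* and *Foxj1* were at 0 UMIs in KO. The part of these transcripts in the differences between genotypes was not tested.

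**Figure D5:**
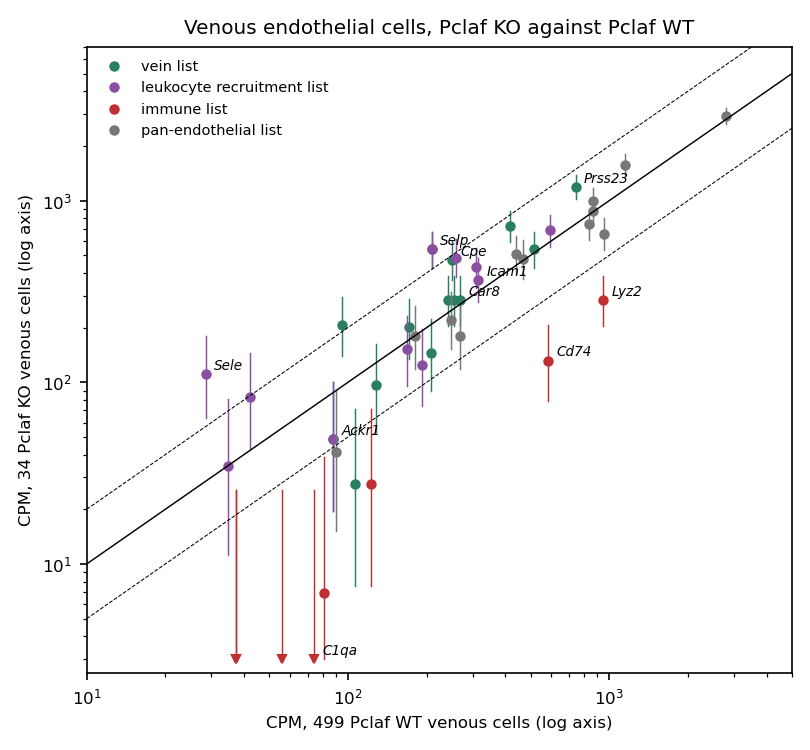
CPM in 34 *Pclaf* KO venous cells (y axis) against 499 *Pclaf* WT venous cells (x axis), both log axes, for the genes of 4 lists with at least 50 UMIs. Bars are exact 95% Poisson intervals of the KO value, triangles are genes at 0 KO UMIs, the solid line marks equality and dashed lines mark 2-fold. Vein and pan-endothelial genes lie around the line, and immune markers lie below it.

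Immediate-early genes respond to stress and to tissue dissociation. The 12 genes of that list summed to 4325 CPM in WT venous cells and 6245 CPM in KO venous cells, and 1 of 12, *Atf3*, was at least 2-fold higher in KO, as were 2.15% of all measured genes. Of the 12, 10 had a log2 ratio of KO over WT above 0, with a median of 0.55 against -0.08 over all genes. In WT all 12 were above their capillary level, with a median log2 ratio of 0.51. The 12 cell cycle genes summed to 729 CPM in the WT venous cells, against 1205 CPM in the KO ones. *Mki67* had 79 UMIs in WT (48.9 CPM) against 9 UMIs in KO (62.3 CPM), with a log2 ratio of 0.35 (-0.83 to 1.35). None of the 7 measured genes of this list passed 2-fold between genotypes, 6 of them had a log2 ratio above 0, and their median was 0.73. *Cks2*, named above, is outside the list.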

How the data were processed

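The authors prepared 1 library per genotype with a 10x Genomics Chromium 3' kit, and deposited for each a matrix of raw UMI counts, with genes as rows and barcodes as columns. The submitters' processing notes name Cell Ranger 3.1.0, STAR and the GRCm38 (mm10) assembly, while the matrix headers name Cell Ranger 5.0.0. Counts were used as deposited, with no integration or clustering. Cells with more than 200 and under 5000 genes and under 20% mitochondrial UMIs were kept, with the limits of the study's methods read as numbers of genes. No doublet caller was run, and the 3 lineage genes of the rule removed barcodes that mixed lineages only where those genes were captured. Depth ran to 98171818 UMIs in WT and 111267567 in KO.

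UMIs were summed over the cells of a class, divided by the class total and given as CPM. A log2 ratio used these sums, with 0.5 UMIs added to both sides where 1 side was 0, and an exact conditional 95% interval. Genes needed 50 UMIs over both sides, and a gene was called at 2-fold. No test was possible with 1 library per genotype. The text names the genes of the rule, genes of the fixed lists, and the 10 highest and 10 lowest ratios, of which 1 gene is not reported here. The members of the class, the gene lists and the alternatives were chosen with earlier results of these data known. The splits by *Slc6a2* and *Selp*, the search for genes above every other class, the left-out pair of KO cells, and the sets with *Xist* or Y-linked transcripts were added after values were seen. The ratio scripts were tested on simulated data. Gene positions are from GENCODE vM21 (GRCm38). Alternatives covered the limits of the rule, the cell filters, thinning to 1000 UMIs, the denominator, TMM factors (edgeR 4.0.16) and the UMI minimum. The work used Python 3.11.15, numpy 2.4.6, scipy 1.17.1 and pandas 2.3.3.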

Additional observations from a re-analysis of the deposited data

Results flagged for a closer look

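Among the genes of the lists and the named genes, 9 had a log2 ratio of venous over capillary cells of opposite sign in the libraries, each with a counting interval that left out 0. The difference between genotypes was not tested, since each has 1 library. The surfactant genes and other type 2 cell genes were among them. *Sftpc* stood at 0.5175 in WT and -4.49 in KO, *Sftpb* at 0.7041 and -5.352, *Sftpa1* at 0.5501 and -5.721, *Sftpd* at 0.7811 and -5.312, *Slc34a2*, a phosphate transporter of type 2 cells, at 0.9319 and -4.591, and *Lcn2*, a secreted iron-carrier binding protein, at 1.146 and -3.551. Most WT UMIs of these genes lay in few cells: of the UMIs in the 499 WT venous cells, 3 cells held 75.5% for *Sftpc*, 73.7% for *Sftpb*, 74.9% for *Sftpa1*, 73.5% for *Sftpd*, 81.3% for *Slc34a2* and 87.4% for *Lcn2*. The epithelial markers summed to 55290 CPM in the KO capillary class and 2962 CPM in the WT capillary class, and their part in these ratios was not tested.

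The other 3 genes are endothelial or vessel-wall genes. *Mgp*, a matrix protein that inhibits calcification, stood at -0.1354 in WT and 2.125 in KO, but 128 of its 184 UMIs in the KO venous cells (69.6%) lay in 3 cells. *Hpgd*, which breaks down prostaglandins, stood at -0.1704 and 0.4296, and *Cav1*, the coat protein of caveolae, at -0.3059 and 0.2904.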

How the results depend on the processing

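No paired analysis was possible because each genotype has 1 library, and for the same reason no library could be left out. Over the 10 summary results, 120 of 164 values under the alternatives stayed near the main one, 44 moved and none reversed. The count of genes at least 2-fold higher in venous than in capillary cells (307) became 516 with a minimum of 20 UMIs, 121 with 200, 157 in thinned cells and 145 in cells with *Xist* alone. The count of lower genes (219) became 437, 97 and 137 with 20 UMIs, 200 UMIs and *Xist* alone, 427 when 2 of the 3 vein genes were required, 450 when cells with *Gpihbp1* were left out and 664 against all other endothelial cells. The vein list median (3.944) became 3.198 against all other endothelial cells. The recruitment list median (1.625) became 0.8487 with 2 or more *Vwf* UMIs, 0.5374 against all other endothelial cells, 0.5988 in thinned cells, 0.04104 with the cell limits read as UMIs and 0.7968 without the 5% of cells with most UMIs. Over the genes that reached the UMI minimum with *Xist* alone, the vein list median was 3.554 and the recruitment list median 1.142. With Y-linked transcripts alone they were 3.844 and 1.608, and 209 genes were higher and 194 lower in venous than in capillary cells.

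Between genotypes, the count of genes higher in KO (121) became 432 with 20 UMIs, 12 with 200, 60 in thinned cells, 61 with *Xist* alone, 198 with the limits read as UMIs and 250 as a mean over cells. The count of lower genes (545) became 1336, 51, 283 and 157 under the first 4 of these, and 362 with 2 of the 3 vein genes. The number of venous cells in WT (499) became 268 with 2 of the 3 vein genes, 251 without *Gpihbp1*, 108 with *Xist* alone and 162 with Y-linked transcripts alone. In KO (34) it became 16 without *Gpihbp1*, 15 with *Xist* alone, 9 with Y-linked transcripts alone and 20 with the limits read as UMIs. Their percent of WT endothelial cells (6.18) became 5.239 with 2 or more *Vwf* UMIs, 3.319 with 2 of the 3 vein genes, 6.94 with 500 genes per cell, 8.565 with *Xist* alone, 7.178 with Y-linked transcripts alone and 3.109 without *Gpihbp1*. In KO (7.692) it became 5.204 with 2 of the 3 vein genes, 10.79 with *Xist* alone and 3.62 without *Gpihbp1*.

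Signs reversed for 2 named genes between venous and capillary cells, in cells with *Xist* alone: *Lyz1* (2.506) and *Sln* (1.769). Between genotypes, the log2 ratio reversed in cells with Y-linked transcripts alone for *Selp* (-1.922), *Sele* (-1.337), *Cks2* (-1.119), *Apold1* (-0.4114) and *Mustn1* (-0.1094), with the limits read as UMIs for *Selp* (-1.539) and *Apold1* (-1.838), and without *Gpihbp1* for *Ccl21a* (0.09571). The causes were not tested. The depth of the 34 KO cells is 1 limit on the values between genotypes: the level of 3 counts there is 20.8 CPM.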

Other observations

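Signals of the transforming growth factor and bone morphogenetic protein family were uneven in WT venous cells. Of 17 measured genes, 4 were at least 2-fold higher than in capillary cells and 1 at least 2-fold lower, where 3.67% and 2.62% of all measured genes were, and the median log2 ratio was 0.01. The ligand *Tgfb2* was at 90.5 CPM in venous and 9.59 CPM in capillary cells, and the ligand *Bmp4* at 111.5 and 27.2 CPM. The ligand *Bmp6* went the other way, at 394 and 1001 CPM. *Tgfb2* had 146 UMIs in venous cells and reached the UMI minimum mainly through them, so the count of 4 rests in part on that minimum. The coagulation genes had 1 of 10 measured in each direction, too few to be read against those shares of all genes, and a median log2 ratio of 0.22. Among them *Procr*, the protein C receptor, was at least 2-fold higher (29.1 against 3.99 CPM) and *Plat*, tissue plasminogen activator, at least 2-fold lower (16.7 against 39.5 CPM), while the anticoagulant receptor *Thbd* was at 989 and 1043 CPM.

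*Lyve1*, best known from lymphatic vessels, was at 1089 CPM in WT venous cells and was found in 79.4% of them. It was at 834 CPM in the lymphatic class, 957 CPM in the arterial class and 552.5 CPM in the capillary class, so in this library it did not separate lymphatic from blood vessels. The fatty acid carrier *Fabp4* was at 191.5 CPM in venous and 37.5 CPM in capillary cells, but in 13.4% of venous cells.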
